A study of Homo sapiens with 14 samples.

Results

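The 10 genes MYC, MYCN, MYCL, MAX, MXD1, MXD4, MXI1, MNT, MLX and MGA encode the core of the MYC and MAX network, and they were described here out of 20033 protein-coding genes by the KLF4 ChIP-seq peaks that fell in their windows. A window ran from 10 kb upstream of the outermost start of the gene to 2 kb past its end, and a peak was given to a gene when its summit, the position of highest signal, lay in the window. BEAS-2B is an established line of human bronchial epithelial cells, and KLF4 is a zinc finger transcription factor. The cells were either WT or Nrf2 KO, where Nrf2 is the transcription factor of the oxidative stress response, and either stayed untreated (control) or received 1 µM As3+, trivalent inorganic arsenic, for 6 h. Nrf2 KO cells were obtained with CRISPR-Cas9 guides to exon 2 of Nrf2, colonies without the Nrf2 protein were called KO, and edited colonies that still made Nrf2 served as WT. There was 1 KLF4 library for each of the 4 conditions, so differences between conditions have no replicate behind them and are given without p-values. The single KLF4 input named in the labels came from untreated WT cells.

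MYC, MYCN and MYCL are transcription factors with a basic helix-loop-helix leucine zipper that bind DNA as partners of MAX, most often at the E-box CACGTG, and drive growth and biosynthesis genes. MXD1, MXD4, MXI1, MNT and MGA take MAX away from the MYC proteins and act mainly as repressors at the same boxes, and MLX joins the network from a parallel branch that responds to glucose. KLF4 binds GC-rich and CACCC-type words and is known, together with MYC, from the reprogramming of somatic cells.

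All 10 members had a KLF4 peak in the WT As3+ library and all 10 also did in Nrf2 KO control, while 2 members (MYC and MYCN) had one in the WT control library and 1 member (MYCN) in the Nrf2 KO As3+ library. The same windows around all protein-coding genes held a peak for 66.5% of genes in WT As3+, 81.0% in Nrf2 KO control, 2.51% in WT control and 0.439% in Nrf2 KO As3+. Member windows held 5 peaks of the 751 in the WT control list, 22 of 29870 in WT As3+, 37 of 76545 in Nrf2 KO control and 4 of 130 in Nrf2 KO As3+. The member counts rose and fell with the length of the lists, and the lists themselves differed by more than the members did. The median number of peaks per member was 0, 2, 3 and 0 in this order, against 0, 1, 2 and 0 per protein-coding gene, with a median window of 27.9 kb for members and 39.5 kb for all genes.

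**Figure D1:**
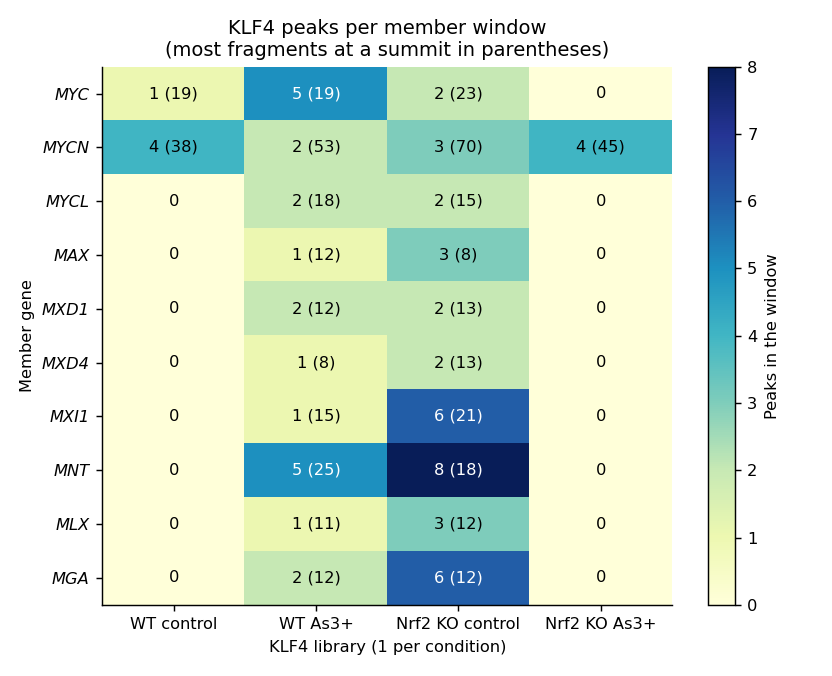
Number of KLF4 peaks in the window of each member (rows) in each of the 4 libraries (columns), as colour and first number, with the most fragments over any of their summits in parentheses. MYCN is the only member with peaks in all 4 columns, and 8 members have peaks in the WT As3+ and Nrf2 KO control columns alone.

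A promoter peak, with its summit within 2 kb of the transcription start site (TSS) of the canonical transcript, was present for 2 members in WT control against 0.794% of all genes, for 8 in WT As3+ against 52.5%, for 10 in Nrf2 KO control against 67.5% and for 1 in Nrf2 KO As3+ against 0.195%. The 2 members without a promoter peak in WT As3+ were MXI1 and MGA, both of which have long records with more than 1 start region. Promoter peaks made up 4 of the 5 member peaks in WT control, 14 of 22 in WT As3+, 18 of 37 in Nrf2 KO control and 3 of 4 in Nrf2 KO As3+. A peak in WT As3+ and none in WT control was found for 8 members, a pattern of 64.0% of all genes. A peak in Nrf2 KO control and none in Nrf2 KO As3+ was found for 9 members, a pattern of 80.6% of all genes. The pattern of peaks in WT As3+ and Nrf2 KO control only was that of 8 members and 61.3% of all genes. MYC was the only member with peaks in every library but Nrf2 KO As3+ (2.23% of all genes), and MYCN the only one with peaks in all 4 (0.215% of all genes, 43 genes).

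**Figure D2:**
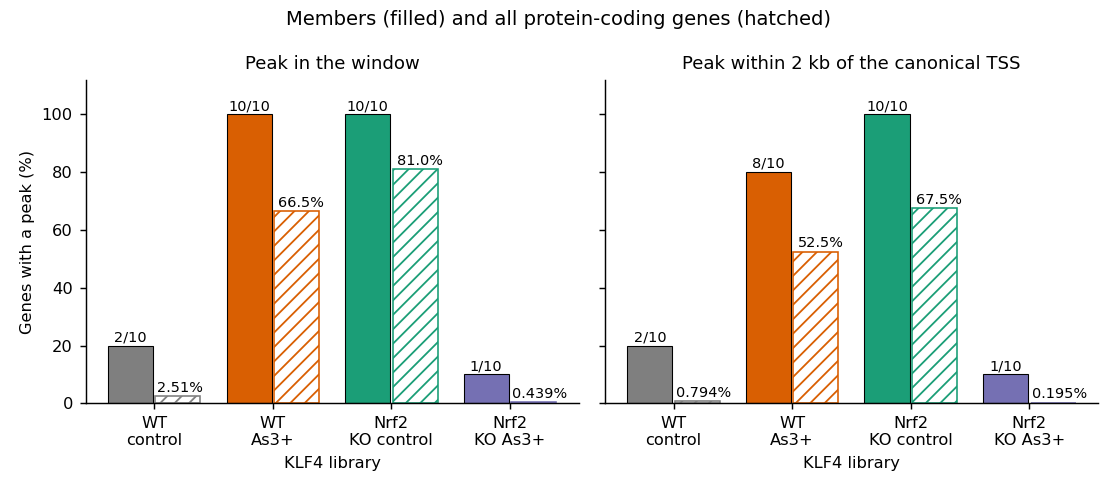
Percent of genes with a KLF4 peak in the window (left) and within 2 kb of the canonical TSS (right) in each library, for the 10 members (filled bars, with the count above) and for all 20033 protein-coding genes (hatched bars). The hatched bars are tallest in Nrf2 KO control and lowest in Nrf2 KO As3+, and the filled bars of the left panel reach 10 of 10 in WT As3+ and in Nrf2 KO control.

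The number of fragments over a summit and the local background there were worked out from the deposited fold enrichment and p of the peak, taking p as a Poisson tail, and both are given as a description of depth. The lowest local background was 1.90 fragments in WT control, 0.757 in WT As3+, 0.491 in Nrf2 KO control and 1.64 in Nrf2 KO As3+, and the median peak held 25, 10, 7 and 19 fragments over its summit in this order. The weakest listed peaks held 10 fragments in WT control and Nrf2 KO As3+, 5 in WT As3+ and 4 in Nrf2 KO control, and a peak that is missing from the 2 short lists may lie below their threshold. Fold was used within a list and was not compared between libraries. The part that background and depth had in the counts above was not tested. Member peaks had a median of 23, 14, 9 and 32.5 fragments and a median fold of 6.15, 5.76, 5.60 and 11.3 in WT control, WT As3+, Nrf2 KO control and Nrf2 KO As3+. The median fold of the whole lists was 4.37, 4.72, 4.69 and 4.69 in this order. MYCN held 4 of the 5 member peaks in WT control and all 4 in Nrf2 KO As3+, so the member medians there describe mainly MYCN.

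**Figure D3:**
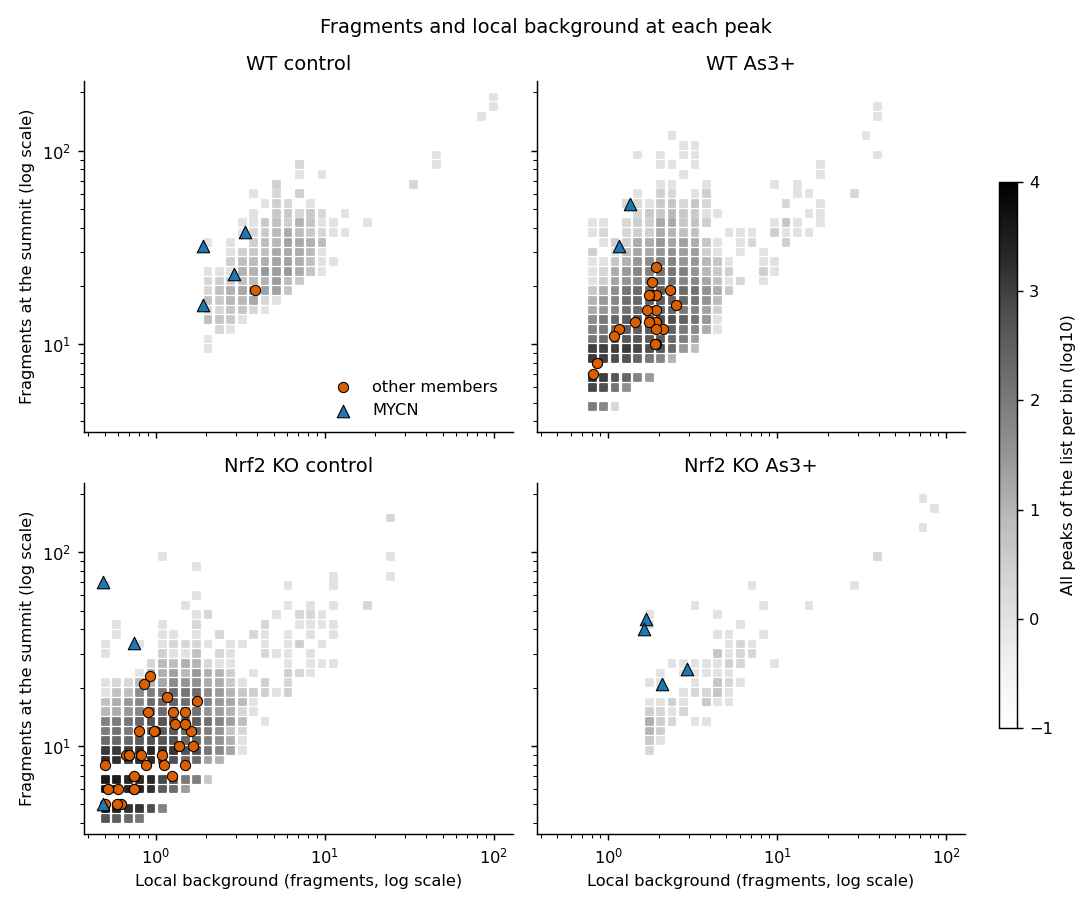
Fragments over the summit (vertical axis) against local background (horizontal axis), both on log scales, for the member peaks of each library, with MYCN as triangles and the other members as circles, over the density of all peaks of that list in grey. The MYCN peak with 70 fragments in Nrf2 KO control stands over the lowest background of its list, while the other members lie inside the grey cloud.

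Merged across libraries, the member peaks formed 41 sites. Of these, 22 were listed in Nrf2 KO control only, 12 in WT As3+ and Nrf2 KO control, 4 in WT As3+ only, 2 in all 4 libraries and 1 in all but Nrf2 KO As3+. Both sites listed in every library belonged to MYCN, and the site listed in 3 libraries belonged to MYC. Of the 22 WT As3+ member peaks, 18 overlapped a Nrf2 KO control peak by at least 1 bp (81.8%, exact Clopper-Pearson 95% interval 59.7 to 94.8), against 55.6% of all WT As3+ peaks. Of the 37 Nrf2 KO control member peaks, 15 overlapped a WT As3+ peak (40.5%, 24.8 to 57.9), against 21.7% of all Nrf2 KO control peaks. These intervals cover counting error only. Member peaks were wider than those of the whole lists, with a median of 437 against 290 bp in WT As3+ and 383 against 267 bp in Nrf2 KO control. The part of width in these overlaps was not tested. By summits within 200 bp, 6 of the 22 (27.3%, 10.7 to 50.2) and 6 of the 37 (16.2%, 6.19 to 32) were shared, against 37.4% of all WT As3+ and 14.6% of all Nrf2 KO control peaks.

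MYC, the broadly expressed founding member of the family, spans chr8:127735434-127742951 on the plus strand (GRCh38/hg38) and had 1, 5, 2 and 0 peaks in WT control, WT As3+, Nrf2 KO control and Nrf2 KO As3+. Its WT control peak had its summit in intron 1, 1750 bp past the canonical TSS and 236 bp from the start of a shorter MYC transcript, with 19 fragments over a background of 3.87 and rank 556 of 751 by −log10 p. The WT As3+ library listed summits 2161, 1130 and 218 bp upstream of the TSS, 1305 bp downstream in intron 1 and 2590 bp downstream in coding exon 2, with 15, 10, 19, 13 and 13 fragments. The best of these 5, at 218 bp upstream, ranked 3564 of 29870 and was the only MYC window with a KLF word, a term explained with MYCN. In Nrf2 KO control, MYC had a weaker peak 25 bp upstream of the TSS with 12 fragments and a stronger one 1531 bp downstream in intron 1 with 23 fragments, a fold of 12.5 and rank 96 of 76545. The intron 1 site was thus the only MYC site listed in 3 libraries, and it stood low in the WT control list, at rank 7110 in WT As3+ and near the top in Nrf2 KO control. At −log10 q of at least 5, MYC kept no peak in WT control, 3 in WT As3+ and 1 in Nrf2 KO control.

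MYCN, the family member best known from the developing nervous system and neuroblastoma, spans chr2:15940550-15947007 on the plus strand and had 4, 2, 3 and 4 peaks in the same order. In WT control the summits lay 453 bp upstream of the TSS, 624 bp downstream in intron 1, 1711 bp downstream in coding exon 2 and 2544 bp downstream in intron 2, with 23, 38, 32 and 16 fragments. The exon 2 peak ranked 30 of 751 by −log10 p and 4 by fold (11.4). In WT As3+ 1 peak of 3075 bp, with a summit of 53 fragments 555 bp downstream, covered the ground of the first 3 WT control peaks, and a second peak followed 2676 bp downstream with 32 fragments. The wide WT As3+ peak ranked 16 of 29870.

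In Nrf2 KO control a single peak of 3095 bp again spanned the start of MYCN, with its summit 1742 bp downstream in coding exon 2. It held 70 fragments over a background of 0.491, the lowest of the list, and its fold of 47.6 was the highest of all 76545 peaks, with rank 2 by −log10 p. A second peak 2666 bp downstream in intron 2 held 34 fragments and ranked 15. In Nrf2 KO As3+ the 4 summits lay 426 bp upstream, 350 bp downstream in intron 1, 1726 bp downstream in exon 2 and 2713 bp downstream in intron 2, with 25, 45, 40 and 21 fragments. They ranked 19, 1, 4 and 21 of the 130 peaks of this list, and the intron 1 peak was first by fold as well (17.3). MYCN was thus near the top of every list. The protein-coding genes with a peak were ordered by the −log10 p of their strongest peak. In this order MYCN took rank 23 of 503 in WT control, 13 of 13314 in WT As3+, 2 of 16226 in Nrf2 KO control and 1 of 88 in Nrf2 KO As3+.

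**Figure D4:**
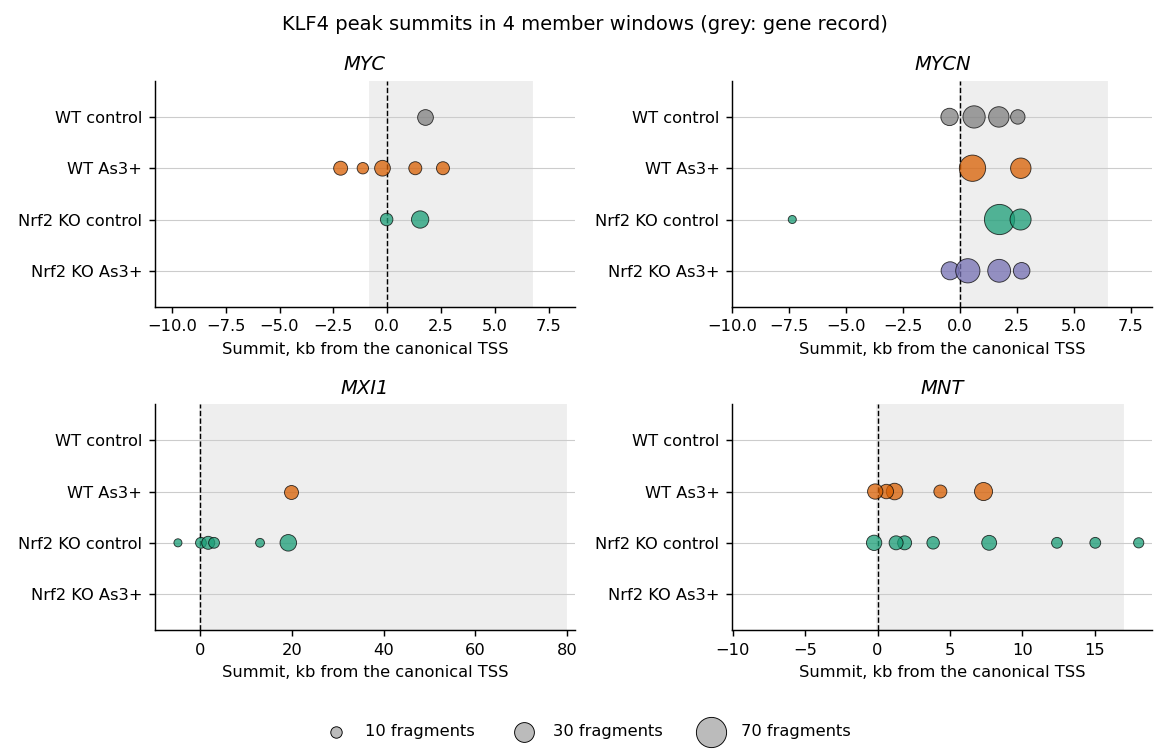
Summits of KLF4 peaks in the windows of MYC, MYCN, MXI1 and MNT, in kb from the canonical TSS (dashed line), with 1 row per library, circle area in proportion to the fragments over the summit and the gene record shaded grey. MYCN holds large circles within 3 kb of its TSS in all 4 rows, and the MXI1 summits with most fragments lie about 19 kb into the gene.

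The MYCN site of exon 2 and the site upstream of the TSS are printed because 3 libraries placed a summit in the first and 2 in the second, close to each other. All sequences below are from GRCh38 and are written 5′ to 3′ on the strand of the gene. The exon 2 site (chr2:15942216-15942337, plus strand) runs from 45 bases before the WT control summit to 45 bases after the Nrf2 KO control summit, and its capitals mark the only KLF word, CCACACCC or CCACGCCC on either strand, in the printed stretch. The upstream site (chr2:15940057-15940164, plus strand) holds neither a KLF word nor an E-box, and its capitals mark the 28 bases from the WT control to the Nrf2 KO As3+ summit.
MYCN exon 2 site: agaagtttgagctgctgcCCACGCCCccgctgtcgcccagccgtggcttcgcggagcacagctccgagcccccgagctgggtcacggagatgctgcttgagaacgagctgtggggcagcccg
MYCN upstream site: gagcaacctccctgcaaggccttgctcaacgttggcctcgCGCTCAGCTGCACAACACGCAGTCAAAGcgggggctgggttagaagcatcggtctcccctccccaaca
The KLF word of exon 2 lay within 100 bp of the summit in WT control, Nrf2 KO control and Nrf2 KO As3+, and it is part of the coding sequence. The WT As3+ summit lay in intron 1, and its window of 200 bp held no KLF word.

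The remaining MYCN peak of Nrf2 KO control, farther upstream, held 5 fragments. The TSS of MYCNOS, a long noncoding RNA gene that neighbours MYCN, lay 698 bp from the canonical MYCN TSS, and the peaks at the start of MYCN cannot be given to 1 of the 2 genes.

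The 2 Mb centred on the MYCN TSS held 8, 23, 34 and 9 peaks in WT control, WT As3+, Nrf2 KO control and Nrf2 KO As3+, or 4.00, 11.5, 17.0 and 4.50 per Mb, against 0.243, 9.67, 24.8 and 0.0421 per Mb over the genome. Of the 130 strongest peaks of each list, 5, 5, 6 and 9 lay in these 2 Mb. The strongest outside the MYCN window lay 379.6 kb and 348.4 kb upstream in Nrf2 KO As3+, with 53 and 71 fragments and ranks 2 and 3, and others lay 567.6, 668.4 and 725.0 kb downstream. The local background of the peaks in the 2 Mb had a median of 2.99, 0.963, 0.517 and 2.08 fragments, against 4.84, 1.35, 0.717 and 3.33 over all peaks. This median was lower than that of the whole list in each library, but single strong peaks were not. The strong peak near 348.4 kb upstream stood over 4.84, 3.27, 1.75 and 7.49 fragments, at the list median in WT control and above it in the other libraries.

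**Figure D5:**
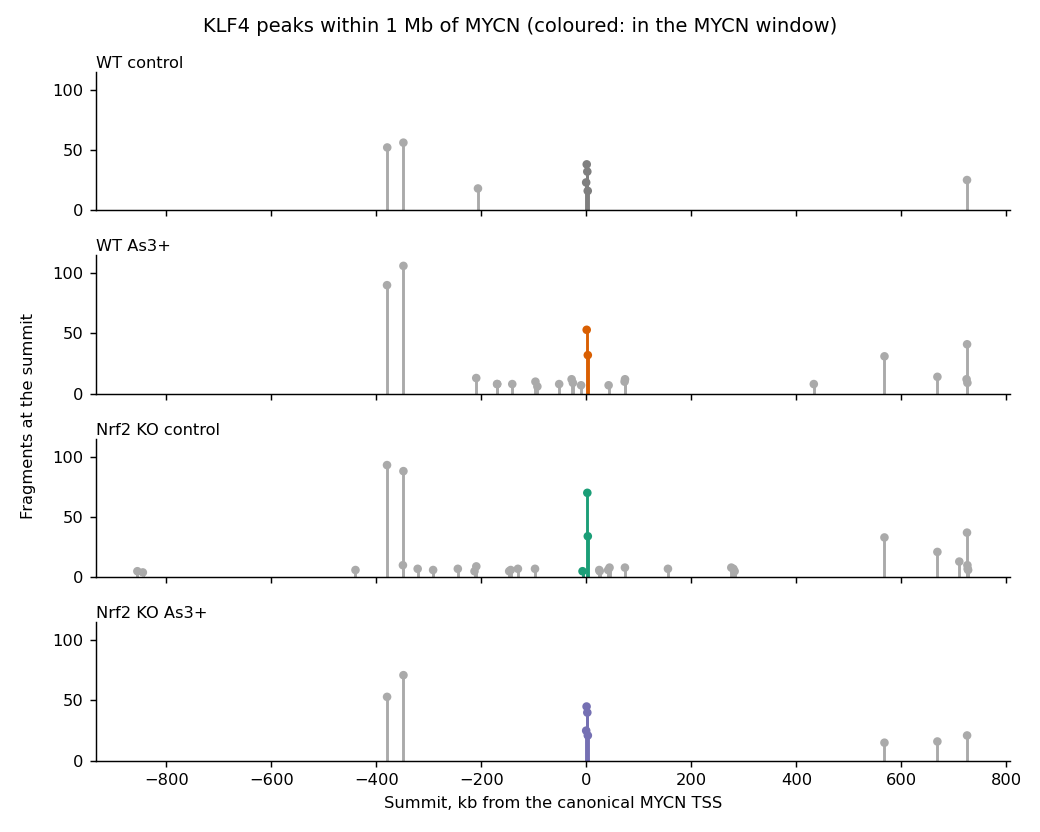
Fragments over the summit (vertical axis) of every KLF4 peak within 1 Mb of the canonical MYCN TSS, by distance from it in kb, with 1 panel per library and the peaks of the MYCN window in colour. The same few positions, at MYCN and near 379.6 kb and 348.4 kb upstream, carry the tallest lines in all 4 panels.

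Genome-wide, 45 merged sites had a peak in all 4 lists, the 2 MYCN sites and 3 others of the same 2 Mb among them. At the MYCN site that spans the start, the most fragments over a summit were 38 in WT control, 53 in WT As3+, 70 in Nrf2 KO control and 45 in Nrf2 KO As3+. The summit with 70 lay in coding exon 2 and the others in intron 1, so the Nrf2 KO control ratio at this site compares different summits. The exon 2 summits of WT control and Nrf2 KO As3+ held 32 and 40 fragments. At the intron 2 site the most fragments over a summit were 16, 32, 34 and 21. As a ratio to WT control, the 2 sites stood at 1.84 and 2.13 in Nrf2 KO control, where the 40 sites outside these 2 Mb had a median of 0.541 and reached from 0.155 to 2.10, and the 3 other sites of the 2 Mb ran from 1.48 to 1.79. In Nrf2 KO As3+ the 2 ratios were 1.18 and 1.31, against a median of 0.734 (0.359 to 1.40) over the 40 sites and 0.840 to 1.27 at the 3 neighbours. In WT As3+ they were 1.39 and 2, against a median of 0.922 (0.326 to 2.84) over the 40 sites and 1.64 to 1.89 at the 3 neighbours, and the site at the start took rank 12 of the 45. The intron 2 site thus lay above the 3 neighbours in each of these libraries, and ranked 1, 2 and 4 of the 45 in Nrf2 KO control, Nrf2 KO As3+ and WT As3+. All 3 of its ratios share the 16 fragments of WT control as denominator, so they are not independent of each other. In Nrf2 KO As3+ the lead was only 1.31 against 1.27, and the counting error of these ratios was not tested. By its highest summits, the site at the start lay above the 3 neighbours in Nrf2 KO control (1.84 against at most 1.79), within their range in Nrf2 KO As3+ and below it in WT As3+. Whether libraries were brought to 1 depth before peaks were called is not given in the sources used here, so these ratios are of unscaled fragments. Local background was not subtracted from the fragments, and its part in the ratios of MYCN and of the 40 sites was not tested.

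MYCL, the MYC protein first found amplified in small cell lung cancer, spans chr1:39895428-39902256 on the minus strand and had 2 peaks in WT As3+ and 2 in Nrf2 KO control. In WT As3+ the summits lay 688 bp downstream of the TSS in coding exon 1 and 316 bp upstream of it, with 18 fragments each and ranks 3049 and 3249. In Nrf2 KO control they lay 944 bp downstream in the same exon with 15 fragments, and 462 bp upstream with 7 fragments and rank 69583. Both sites were shared by the 2 libraries. The upstream site of Nrf2 KO control (chr1:39902304-39902454, minus strand) is printed for its GC box, the word CCCCGCCC on either strand, shown in capitals.
MYCL upstream site: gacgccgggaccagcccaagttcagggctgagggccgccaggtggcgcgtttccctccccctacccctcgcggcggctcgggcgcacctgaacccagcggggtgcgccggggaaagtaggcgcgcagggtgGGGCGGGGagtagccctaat

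MAX, the obligate partner of the MYC proteins, spans chr14:65006174-65102695 on the minus strand. Its WT As3+ peak had its summit in intron 1, 225 bp downstream of the TSS, with 12 fragments and rank 6918. Nrf2 KO control listed the same site at 231 bp downstream with 7 fragments, a site 540 bp upstream with 8 fragments, and a site 36029 bp downstream with 5 fragments, which held a KLF word in its 200 bp. None of the 3 Nrf2 KO control peaks reached −log10 q of 5, so MAX was the only member without a peak at that level in Nrf2 KO control.

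MXD1 and MXD4 encode MAX partners that recruit SIN3 and histone deacetylases and rise as cells differentiate. MXD1 spans chr2:69897688-69942945 on the plus strand. Its WT As3+ summits lay 117 bp downstream of the TSS in the 5′-UTR and 414 bp downstream in intron 1, with 10 and 12 fragments. In Nrf2 KO control 1 peak of 909 bp covered both, with 13 fragments and its summit 121 bp upstream. A further peak with 6 fragments lay 12167 bp upstream of the canonical TSS but 5254 bp past the outermost MXD1 start. Its distance to the TSS of SNRNP27, a gene named here after its position was seen, was 8986 bp. The window of 50 bases to either side of the upstream summit (chr2:69914938-69915038, plus strand) is printed because the GC box, in capitals, lies on the summit itself.
MXD1 upstream site: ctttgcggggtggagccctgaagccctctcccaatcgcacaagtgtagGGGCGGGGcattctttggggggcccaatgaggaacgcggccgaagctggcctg

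MXD4 spans chr4:2247432-2262109 on the minus strand and had no site shared by 2 libraries. Its WT As3+ summit lay in intron 2, 752 bp downstream of the TSS, with 8 fragments and rank 17168. The Nrf2 KO control summits lay 622 bp upstream with 13 fragments and rank 8178, and 8242 bp downstream in intron 3 with 8 fragments. No 2 of these 3 peaks overlapped.

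MXI1, also called MXD2 and a further antagonist of MYC, spans chr10:110207605-110287365 on the plus strand and had 1 peak in WT As3+ and 6 in Nrf2 KO control. The strongest in Nrf2 KO control lay 19175 bp past the canonical TSS, in intron 1 of the canonical transcript but 3 bp from the start of a shorter MXI1 transcript. It was 1537 bp wide and held 21 fragments with a fold of 11.9 and rank 140 of 76545. The WT As3+ peak fell in the same site, 19751 bp past the TSS and 10 bp from an annotated start, with 15 fragments and rank 5571. The other 5 Nrf2 KO control peaks lay from 4918 bp upstream to 13002 bp downstream and held 5 to 13 fragments, with the one next to the canonical TSS, 106 bp downstream in the 5′-UTR, at 9. The KLF4 signal of MXI1 was thus highest at the start of its shorter transcripts in both libraries. The TSS of a long noncoding RNA gene known only by its identifier, ENSG00000228417, lay 986 bp from the canonical start.

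MNT, a broadly expressed antagonist of MYC, spans chr17:2384073-2401104 on the minus strand and had 5 peaks in WT As3+ and 8 in Nrf2 KO control, the most of any member in the latter library. In WT As3+ the summits lay 161 bp upstream and 606, 1176, 4338 and 7319 bp downstream, with 18, 16, 21, 13 and 25 fragments. The last, in intron 4 and 89 bp from the start of a shorter transcript, ranked 802 of 29870. In Nrf2 KO control the summits at 237 bp upstream and at 1282, 1869, 3839 and 7709 bp downstream held 18, 15, 15, 12 and 17 fragments. The 3 remaining ones, 12393 to 18038 bp downstream, held 8 or 9. The peak 237 bp upstream was the strongest of these 8, with rank 940 of 76545. Of the 8 MNT sites, 4 were shared by the 2 libraries and 4 were listed in Nrf2 KO control only.

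The MNT site upstream of the TSS (chr17:2401161-2401357, minus strand) is printed because it was the only member site at which both libraries had an E-box and a GC box within 100 bp of the summit. Capitals mark the E-box CACGTG, the target of the network's own proteins, and 3 GC boxes, of which the E-box lies between the first and the second.
MNT upstream site: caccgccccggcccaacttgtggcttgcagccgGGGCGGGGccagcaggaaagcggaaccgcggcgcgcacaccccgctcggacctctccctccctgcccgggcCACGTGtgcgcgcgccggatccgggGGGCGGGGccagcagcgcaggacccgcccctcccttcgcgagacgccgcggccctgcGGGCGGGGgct
The stretch runs from 60 bases beyond the Nrf2 KO control summit to 60 bases beyond the WT As3+ summit, and both summits lie before the annotated MNT gene.

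MLX, the partner of the glucose-responsive factors MLXIP and MLXIPL as well as of MXD1, MXD4 and MNT, spans chr17:42567072-42573239 on the plus strand. Its WT As3+ summit lay 111 bp downstream of the TSS in intron 1, with 11 fragments and rank 8496. Nrf2 KO control listed summits 346 bp upstream with 12 fragments and rank 4872, 365 bp downstream in intron 1 with 9 fragments, and 4755 bp upstream with 6 fragments. The last lay 197 bp from the TSS of COASY, which was named after its position was seen, and the site cannot be given to MLX.

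MGA, the largest network protein and a part of a Polycomb-type repressor complex, spans chr15:41621134-41773081 on the plus strand, with its outermost start 39271 bp before the canonical one. WT As3+ listed a summit 39100 bp upstream of the canonical TSS and 114 bp past a start of the longer transcripts, with 12 fragments, and one 76930 bp downstream in intron 13, with 7 fragments. Nrf2 KO control listed a peak 38890 bp upstream with 10 fragments, which touched the WT As3+ peak of the outer start by 1 bp, and had its strongest MGA peak 493 bp downstream of the canonical TSS in intron 1, with 12 fragments and rank 7071. The other 4 held 5 to 10 fragments, and the one 114220 bp downstream lay 141 bp from the TSS of MAPKBP1, again a gene named after its position was seen. The E-box beside the summit of the outer start in Nrf2 KO control is shown with 10 bases on either side (chr15:41621470-41621495, plus strand, the E-box in capitals), as a target word of the network's own proteins, and the 200 bp around the WT As3+ summit held none.
MGA outer start site: ttgcgaccagCACGTGacccgaactg

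Words were counted in 200 bp around each summit. The KLF word was in 1 of 5 member windows in WT control, 1 of 22 in WT As3+, 3 of 37 in Nrf2 KO control and 1 of 4 in Nrf2 KO As3+. Over all peaks of these lists the share was 26.5%, 10.3%, 9.27% and 14.6%. The exact 95% interval was 0.115% to 22.8% for WT As3+ and 1.70% to 21.9% for Nrf2 KO control, both of which include the share of the whole list. The E-box was in 0, 1, 3 and 0 member windows, against 2.93%, 4.44%, 4.33% and 1.54% of all windows. The GC box, a word added after the data were seen, was in 0, 5, 4 and 0 member windows, against 10.1%, 13.9%, 8.25% and 9.23% of all windows. Member windows were GC-rich, with a median of 66.5%, 68.8%, 67.0% and 56.5% GC against 57.0%, 64.5%, 61.5% and 51.0% over the lists. The 5 WT As3+ windows with a GC box belonged to MYC (2), MYCL, MXD4 and MNT, and the 4 of Nrf2 KO control to MYCL, MXD1 and MNT (2).

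Other genes of the pathway were counted by the same windows. MXD3, a further MAX partner, had 4 peaks in WT As3+ and 4 in Nrf2 KO control. MLXIP and MLXIPL, the glucose-responsive partners of MLX, had 2 and 3 peaks in WT As3+ and 5 and 12 in Nrf2 KO control, and none of the 3 genes had one in the other 2 libraries. Of 15 cofactors of MYC or of its antagonists, 14 had a peak in WT As3+ and 15 in Nrf2 KO control, with 0 in WT control and 0 in Nrf2 KO As3+. Of 9 genes that act on the stability of the MYC protein, 7 had a peak in WT As3+, 7 in Nrf2 KO control, 1 in WT control and 0 in Nrf2 KO As3+. The one in WT control was FBXW7, the ubiquitin ligase subunit that marks MYC for degradation, with 1, 3, 4 and 0 peaks in the 4 libraries, while USP28, which removes ubiquitin from MYC, had none in any. Of 16 known MYC targets, 14 had a peak in WT As3+, 15 in Nrf2 KO control, 1 in WT control and 0 in Nrf2 KO As3+. The one in WT control was PTMA, which encodes prothymosin alpha, with 2, 6, 3 and 0 peaks, and NME1, a nucleoside diphosphate kinase gene, had none in any library. The background shares for these counts are those given above for all genes, 2.51%, 66.5%, 81.0% and 0.439%.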

How the data were processed

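KLF4 ChIP-seq peak lists of 4 BEAS-2B libraries, 1 per condition, were analysed. Groups came from the sample titles. Libraries of H3K4me1, H3K27Ac and input are not analysed here. Reads of the libraries were converted with bcl2fastq 2.17, per the submitters' processing notes, and were aligned by the authors with BWA at default settings to GRCh38/hg38. Peaks were called per library, and the caller and the control used are not given in the sources used here. Each deposited list carries the authors' fold enrichment of a summit, a ratio to its local background. The deposited lists also hold a −log10 p and a −log10 q per peak, and a score that follows from −log10 q and was not used for any result.

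Fragments (n) and background (λ) were derived from fold = (n + 1)/(λ + 1) and p as a Poisson tail above n, and the −log10 p so obtained differed from the deposited one by 0.000926 or less. Read totals were not used. The study's methods thin tags to the smallest library for density maps, and whether that preceded peak calling is not given in the sources used here, so depth is described through these values. Gene models came from GENCODE 44, and places refer to the canonical transcript. Sequences and words were read from the genome of the same build. The sequence of 1 member peak is not reported here. Peaks of autosomes, X and Y were used. Intervals are exact Clopper-Pearson at 95%. The steps were tested on simulated data.

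The members and lists were chosen with earlier results of these data known. Named were all 10 members, MXD3, MLXIP and MLXIPL, the genes of the other lists with a peak in WT control or Nrf2 KO As3+ or with none in any library, and genes with a TSS within 1 kb of a member TSS. Alternatives were −log10 q of at least 5, the 130 strongest peaks of each list, assignment by overlap, other windows, a limit on local background, other overlap rules, and word windows of 100 and 400 bp. Software was samtools 1.23.1, Python 3.11.15, scipy 1.17.1, numpy 2.4.6, pysam 0.24.0, pandas 2.3.3 and matplotlib 3.10.9.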

Additional observations from a re-analysis of the deposited data

Results flagged for a closer look

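The change with As3+ had opposite signs in WT and Nrf2 KO cells at the members. The number of members with a peak changed by 8 from control to As3+ in WT cells and by −9 in Nrf2 KO cells. Peaks in member windows changed by 17 in WT and by −33 in Nrf2 KO cells, and members with a promoter peak by 6 and by −9. With 1 library per condition the difference was not tested. With the 130 strongest peaks of each list, members with a peak came to 1 and 1 in WT control and WT As3+. They came to 2 and 1 in Nrf2 KO control and Nrf2 KO As3+. Their peaks went from 2 to 1 in WT and from 3 to 4 in Nrf2 KO cells. Both WT control peaks lay within the ground of the 1 wide MYCN peak of WT As3+. Of the 4 peaks of Nrf2 KO As3+, 3 lay within 1 wide MYCN peak of Nrf2 KO control, so these counts give no direction of change. Among the members, only MYC and MYCN have peaks that pass this cut, so it cannot show how the other members change at equal list length. The whole lists moved the same way as the full member counts, from 751 to 29870 peaks in WT and from 76545 to 130 in Nrf2 KO cells. The lowest local background moved against them, from 1.90 to 0.757 fragments in WT and from 0.491 to 1.64 in Nrf2 KO cells. The part of list length and background in the member counts was not tested. The number of MYCN peaks moved otherwise than at the other members, with 4 and 2 in WT control and WT As3+ and 3 and 4 in Nrf2 KO control and Nrf2 KO As3+. In WT As3+ and Nrf2 KO control 1 wide MYCN peak covered the ground of 3 separate peaks of the other 2 lists. By merged sites, 2 MYCN sites were listed in all 4 libraries, so the MYCN peak counts give no direction of change.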

How the results depend on the processing

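Each of 18 counts was recomputed under its alternatives, 82 values in all, of which 58 stayed within 1.5 times the reported count and 24 did not, 21 lower and 3 higher. With −log10 q of at least 5, members with a peak in WT control came to 1 and those with a promoter peak there to 1, member peaks in WT As3+ to 14 and in Nrf2 KO control to 19, and overlapping peaks to 10 for WT As3+ and 9 for Nrf2 KO control. At the same limit, members with a peak came to 7 in WT As3+ and 9 in Nrf2 KO control, lower but within 1.5 times. With the 130 strongest peaks of each list, members with a peak came to 1 in WT control, 1 in WT As3+ and 2 in Nrf2 KO control, their peaks to 2, 1 and 3, and members with a promoter peak to 1, 1 and 2. With a limit of 1 kb from the TSS, members with a promoter peak in WT control came to 1. Overlap of at least 50% of both peaks left 9 of the WT As3+ and 9 of the Nrf2 KO control member peaks, and summits within 200 bp left 6 and 6. In windows of 400 bp, the KLF word was in 2 and the E-box in 5 WT As3+ member windows, and the E-box in 6 of Nrf2 KO control. In windows of 100 bp the KLF word was in 0 of Nrf2 KO control. The lists with a limit on q or on length hold fewer peaks by construction, and for the other changes the cause was not tested. No paired analysis was possible because each condition has 1 library. The weakest listed peak held 10 fragments in the 2 short lists, 5 in WT As3+ and 4 in Nrf2 KO control.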
